A study of Mus musculus with 32 samples.

Results

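The 9 genes described here encode the histone acetyltransferases (HATs) other than Kat7 that were chosen by name: Kat5, Kat6a, Kat6b, Kat8, Kat2a, Kat2b, Ep300, Crebbp and Hat1. All 9 of the symbols were found among the 27179 genes of the count table, and all 9 passed the filter on low counts in both cell populations. A HAT transfers an acetyl group from acetyl coenzyme A to a lysine of a histone, which loosens chromatin or creates a docking site for other proteins. Kat7 (also Hbo1), Kat5 (Tip60), Kat6a (Moz), Kat6b (Morf) and Kat8 (Mof) share a catalytic domain and form the MYST family. Kat2a (Gcn5), Kat2b (Pcaf) and Hat1 belong to the GNAT family, and Ep300 (p300) and Crebbp (CBP) are a pair of large coactivators. Kat6a, Ep300 and Crebbp are known as regulators of blood stem cells, and Kat7 works with scaffold proteins of the Brpf and Jade families that direct it to its lysines on histones H3 and H4. The comparison asks whether the transcripts of the other enzymes were higher in cells that had lost Kat7.

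RNA was sequenced from LSK cells, the marrow fraction enriched for blood stem and multipotent progenitor cells, and from a progenitor population whose gate the labels do not describe. Each population came from the same 16 adult C57BL/6 mice, which gave 32 libraries in 8 groups of 4 with total counts of 7275277 to 18409271. The knockouts were Hbo1fl/fl and the controls Hbo1fl/+, and by the sample titles the controls had lost 1 allele of Hbo1, although the treatment text calls them wild type. Deletion used RosaCreERT2 with tamoxifen (Hbo1fl/+;CreER and Hbo1fl/fl;CreER), in which Cre is expressed broadly, or Mx1-Cre with PolyIC (Hbo1fl/+;Mx1Cre and Hbo1fl/fl;Mx1Cre), in which interferon switches Cre on. Both genotypes of a Cre line received the same inducer, so Cre line, inducer and mice differ together and cannot be told apart. Ages and the interval after induction are not used here. Each CreER group held 3 females and 1 male, and each Mx1Cre group 2 females and 2 males.

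Some libraries stood apart before any result was read. LSK CreER knockouts 2 and 3 expressed sex-linked genes opposite to their labelled sex. Both are labelled knockouts. The library labelled knockout 2 held 0.849 CPM of Kat7 (counts scaled to the TMM-adjusted library size), and knockout 3 held 0.832. Libraries also differed in how expression varied with transcript length, measured as the slope of log2 CPM, relative to the mean library, per doubling of exon length. The slope was -0.361 in progenitor Mx1Cre control 1 and -0.296 in progenitor Mx1Cre knockout 4. In LSK Mx1Cre knockouts 1, 3 and 4 it was between -0.157 and -0.101, against 0.00760 in knockout 2 and 0.00895 to 0.0427 in the 4 LSK Mx1Cre controls. It was also below -0.1 in progenitor Mx1Cre knockout 3, at -0.127, and was -0.0805 in LSK CreER control 3. Long genes therefore read low in these libraries, and Ep300, Kat6a, Crebbp and Kat6b have 7337 to 9126 bases of exon, against a median of 2619 over the genes tested in LSK cells.

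Kat7 itself followed the labels in all 32 libraries. In the LSK CreER controls its level was 70.4, 74.8, 53.4 and 70.8 CPM and in the knockouts 0.511, 0.849, 0.832 and 1.22 CPM. With Mx1Cre the LSK controls had 72.8, 73.1, 74.4 and 64.4 CPM and the knockouts 0.948, 1.29, 1.64 and 1.5 CPM. In progenitors no knockout library exceeded 1.65 CPM, and the lowest control was 39.7 CPM. The LSK markers summed to 959 to 1932 CPM in LSK libraries and 451 to 712 CPM in progenitor libraries, all 9 markers being detected in every group.

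Per length of transcript, which allows levels to be set between genes, the order of the 9 was much the same in every group. Averaged over the 32 libraries, Hat1 was highest at 106 CPM per kilobase of exon, followed by Kat2a at 60.3. Kat5 stood at 21.8, Kat8 at 19.1, Ep300 at 15.3 and Kat6a at 14.7 CPM per kilobase. Kat2b (9.31), Crebbp (5.50) and Kat6b (3.33) were lowest. In all 8 groups Hat1 lay above Kat2a and Kat2a above every remaining gene with no overlap between libraries, and Kat2b, Crebbp and Kat6b held the last places in that order. The 4 genes in the middle mostly overlapped, and Kat5 was the third in every group except the progenitor CreER knockouts, where Kat8 was at 22.4 CPM per kilobase. Kat7 lay between Kat6a and Kat2b on this scale, with group means of 10.3 to 12 CPM per kilobase in the controls.

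**Figure D1:**
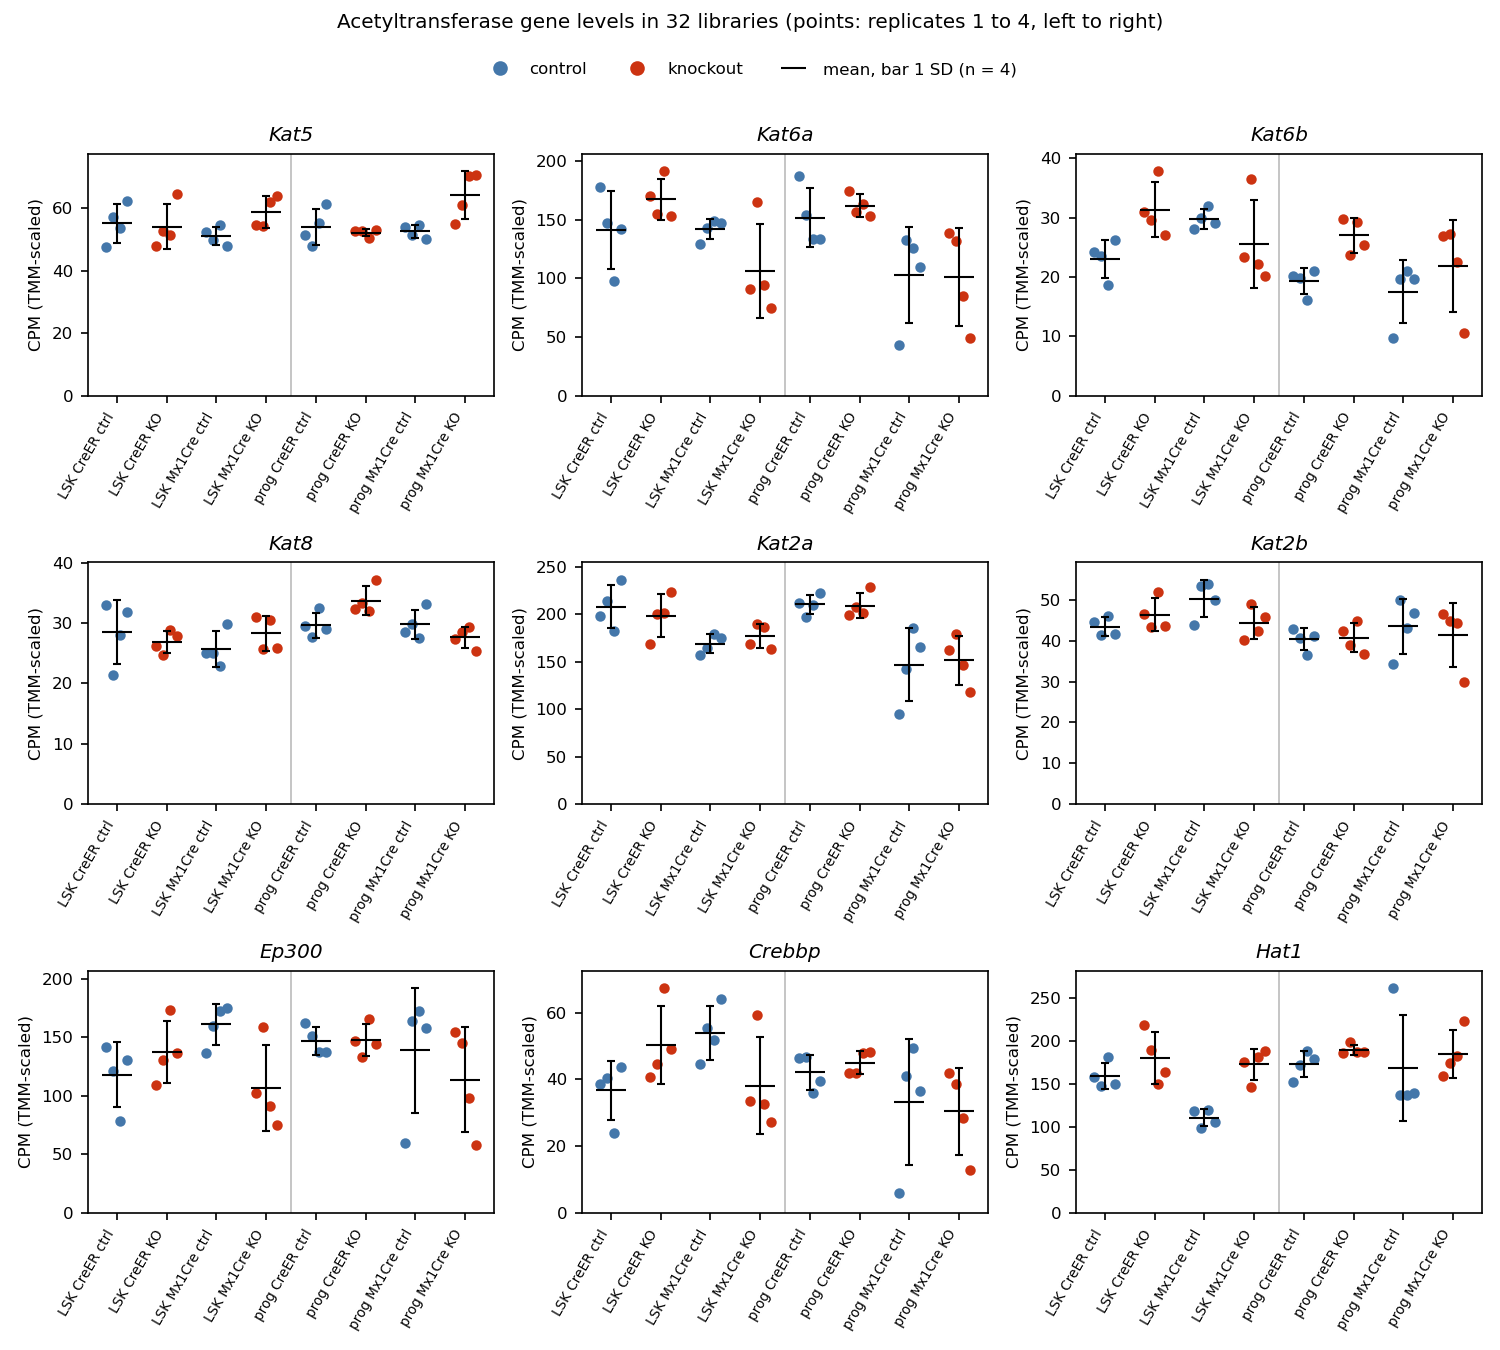
Levels of the 9 histone acetyltransferase genes in CPM (vertical axes, 1 panel a gene) for the 8 groups (horizontal axes, ctrl for control and KO for knockout). Points are libraries, horizontal lines the mean of 4 and bars 1 SD. In the Hat1 panel the LSK Mx1Cre knockouts (147 to 189 CPM) lie above all LSK Mx1Cre controls (99 to 119 CPM).

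The loci of the 2 genes that passed the test for the knockout in LSK cells, Hat1 and Ep300, are shown by the 250 bases before their RefSeq start sites (mm10, GRCm38.p6), since a change in transcript level may be set beside the promoter of each gene. Hat1 (Entrez 107435) spans chr2:71389260-71441622 and Ep300 (Entrez 328572) spans chr15:81586209-81652077, both on the plus strand. The window of Hat1 is chr2:71389010-71389259 and that of Ep300 is chr15:81585964-81586213, whose last bases lie within the Ep300 span given above. Capitals mark matches to a CCAAT box (CCAAT, or ATTGG on the other strand) or a GC box (GGGCGG, or CCGCCC on the other strand).
Hat1 promoter: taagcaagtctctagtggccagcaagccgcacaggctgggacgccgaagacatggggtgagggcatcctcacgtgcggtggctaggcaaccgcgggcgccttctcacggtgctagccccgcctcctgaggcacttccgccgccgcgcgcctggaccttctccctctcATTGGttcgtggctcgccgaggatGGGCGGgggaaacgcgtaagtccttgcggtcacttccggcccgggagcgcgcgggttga
Ep300 promoter: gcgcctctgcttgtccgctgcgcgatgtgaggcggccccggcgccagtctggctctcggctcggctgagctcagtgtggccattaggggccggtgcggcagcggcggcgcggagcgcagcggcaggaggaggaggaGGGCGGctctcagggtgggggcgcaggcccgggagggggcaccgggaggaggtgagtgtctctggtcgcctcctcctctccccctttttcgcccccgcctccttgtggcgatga
The Hat1 window holds 1 CCAAT box and 1 GC box and is 67.6% G and C, and the Ep300 window holds 1 GC box and is 73.2% G and C. Over 32851 promoter windows of this length the median was 52.4%, 33.8% held a CCAAT box and 32.7% a GC box on either strand. Promoter windows were found for 8 of the 9 genes, of which 4 held a CCAAT box and 5 a GC box, and none held an E2F motif (TTTCGCGC, TTTGGCGC, TTTCCCGC or TTTGGCGG), which 1.96% of all windows held. A match describes the letters of the window and is no evidence that a factor binds there.

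In LSK cells 1 of the 9 genes differed between knockouts and controls over both Cre lines, and that gene was Hat1, which rose 1.33-fold. The other 8 did not pass the test, and the upper end of their 95% intervals was at most 1.28-fold (Kat6b). The share of all tested genes called in this comparison was 27.8% (3927 of 14102 genes, adjusted p below 0.05 by edgeR's quasi-likelihood test with Benjamini-Hochberg adjustment), so 1 of 9 is no more than that background. The median log2 change of the 9 was 0.00, against 0.01 over all tested genes. In bulk samples of this kind, fewer cells of a type and less RNA per cell cannot be told apart.

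Hat1 encodes the enzyme that acetylates newly made histone H4 before it is placed on DNA. In the LSK Mx1Cre controls its level was 119, 99, 119 and 105 CPM and in the Mx1Cre knockouts 176, 147, 181 and 189 CPM. All 4 knockouts lay above all 4 controls, and for 29.5% of all genes these groups did not overlap. With CreER the LSK controls had 158, 148, 182 and 149.7 CPM and the knockouts 219, 189, 149.6 and 164 CPM, and these ranges overlapped. The group means with Mx1Cre were 111 ± 10 CPM in controls and 173 ± 18.3 CPM in knockouts (SD, n = 4 each). Over both Cre lines Hat1 rose by 0.41 ± 0.08 on the log2 scale (SE, 95% interval 0.24 to 0.59, adjusted p = 0.00140 by edgeR). With Mx1Cre alone it rose by 0.64 ± 0.12 (adjusted p = 0.000692), which is 1.56-fold (interval 1.32 to 1.86). With CreER alone the estimate was 0.18 ± 0.12 and did not pass (adjusted p = 0.447). The difference between the Cre lines was 0.46 ± 0.17, with an adjusted p of 0.113 by edgeR. The Hat1 call over both lines and that with Mx1Cre held in every alternative fit, including the fit with the length trend removed (0.37 ± 0.07 and 0.52 ± 0.09) and the fit without LSK CreER knockouts 2 and 3 (0.45 over both lines).

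Hat1 differed between the Cre lines in the controls too. Among LSK controls Hat1 was lower with Mx1Cre than with CreER by 0.51 ± 0.12 on the log2 scale (adjusted p = 0.00515 by edgeR), and no Mx1Cre control reached the lowest CreER control. Between these control groups committed progenitor markers summed to 5436 to 11542 CPM with CreER and 17636 to 21855 CPM with Mx1Cre (all 9 detected), neutrophil markers to 70.1 to 117 and 213 to 1175 CPM (all 7), and T and NK cell markers to 120.0 to 156 and 169 to 197 CPM (all 7). The Mx1Cre knockout mean of 173 CPM lay between the CreER means of 159 CPM in controls and 180.4 CPM in knockouts. LSK marker genes moved with the knockout difference: their summed level was 1343 to 1643 CPM in the Mx1Cre controls and 959 to 1325 CPM in the Mx1Cre knockouts. Mast and basophil markers summed to 394 to 643 CPM in these controls and 97.5 to 182 CPM in these knockouts, with all 5 markers detected in both groups. T and NK cell markers summed to 169 to 197 CPM and 203 to 315 CPM, with all 7 detected in both. Endothelial and stromal markers summed to 138 to 193 CPM and 119.8 to 132 CPM, with all 8 detected in both. The part of these marker differences in the Hat1 results was not tested.

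Ep300 moved the other way with Mx1Cre. This coactivator acetylates several histones at enhancers and promoters. In the LSK Mx1Cre controls Ep300 stood at 136, 159.6, 173 and 175 CPM and in the knockouts at 102, 159, 91.1 and 74.7 CPM. Knockouts 1, 3 and 4 were below every control and knockout 2 was not, so the groups overlapped. Ep300 fell by 0.59 ± 0.20 on the log2 scale, to 0.663 of its control level (adjusted p = 0.0324 by edgeR). The share of all genes called with Mx1Cre in LSK cells was 31.0%, against 2 of these 9. The 3 low libraries are the LSK Mx1Cre knockouts with the steep negative length slopes, and with the length trend removed the estimate was -0.32 ± 0.12 (adjusted p = 0.0456). The call was lost when control 2, 3 or 4, or knockout 1, 3 or 4, of the Mx1Cre groups was left out (adjusted p 0.0625 to 0.115). With CreER the Ep300 level was 142, 122, 78.3 and 130.3 CPM in controls and 109, 131, 173 and 136 CPM in knockouts, and the estimate was 0.23 ± 0.20.

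Crebbp (Entrez 12914, chr16:4081334-4213957), the close relative of Ep300, was low in the same libraries. Its level in the LSK Mx1Cre controls was 44.6, 55.5, 51.9 and 64.2 CPM and in the knockouts 33.4, 59.4, 32.7 and 27.1 CPM. In the CreER controls it was 38.5, 40.5, 23.8 and 43.8 CPM and in the knockouts 40.6, 44.6, 67.3 and 49.0 CPM. Both pairs of groups overlapped. The estimate was -0.50 ± 0.22 with Mx1Cre (adjusted p = 0.0925) and 0.46 ± 0.22 with CreER (adjusted p = 0.291), and neither passed. Ep300 made up 70.2% to 80.2% of the summed level of the pair per kilobase, as group means over the 8 groups.

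**Figure D2:**
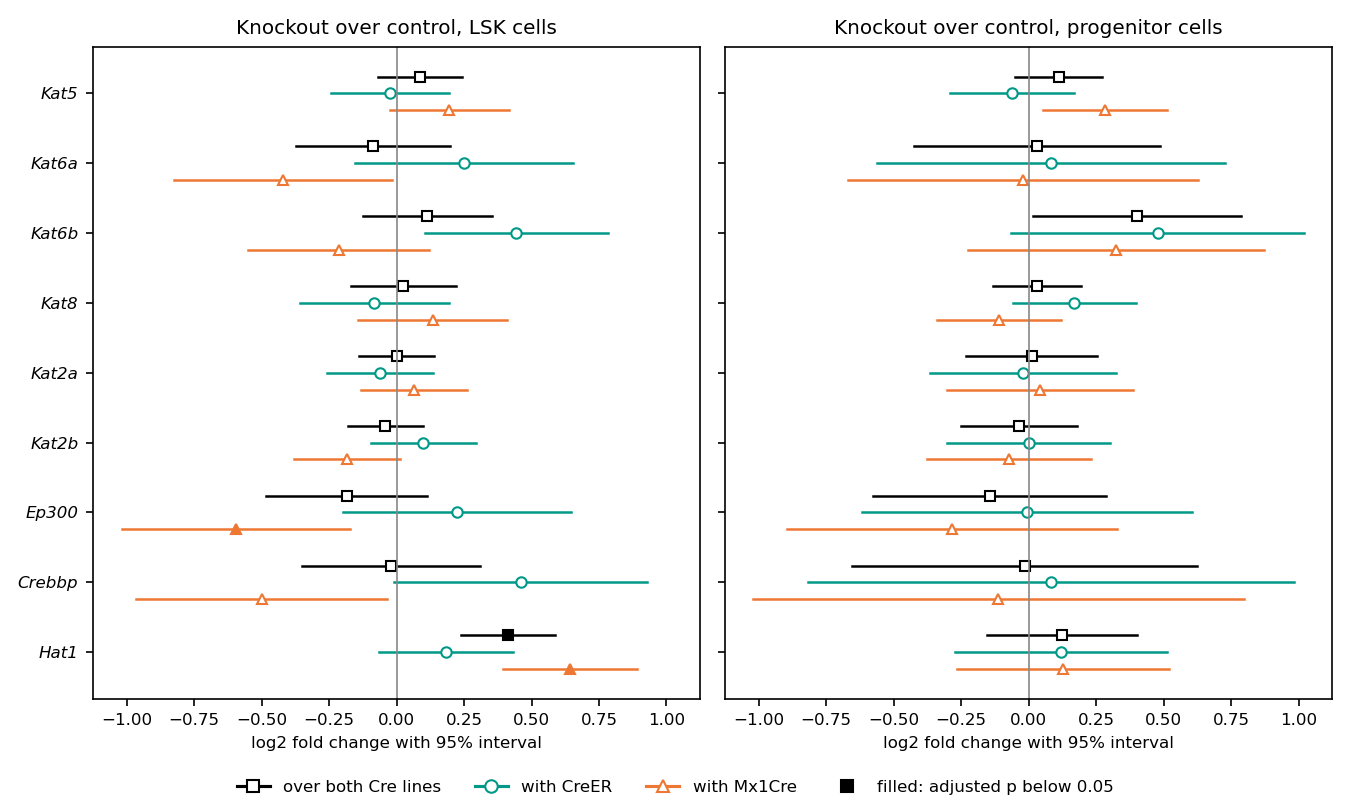
Log2 knockout against control difference (horizontal axis) with its 95% interval for each of the 9 genes, in LSK cells (left) and progenitors (right). Squares stand for both Cre lines together, circles for CreER and triangles for Mx1Cre, and filled points passed adjusted p below 0.05 by edgeR. In LSK cells Hat1 (both lines together and Mx1Cre) and Ep300 (Mx1Cre) are filled, and no progenitor point is.

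Among the MYST genes, the closest relatives of Kat7, none passed edgeR's test in LSK cells. With CreER none of the 9 genes was called by edgeR, DESeq2 or voom, and 1 of the 9, Kat6b, had an unadjusted p below 0.05. Kat6b (Entrez 54169, chr14:21499216-21672478), which works with the scaffold Brpf1 to acetylate histone H3, came nearest with CreER. Its level was 24.2, 23.4, 18.6 and 26.1 CPM in the LSK CreER controls and 31.0, 29.6, 37.8 and 27.1 CPM in the knockouts. These ranges did not overlap, which held for 9.54% of all genes tested. The estimate was 0.44 ± 0.16 on the log2 scale (interval 0.11 to 0.78, adjusted p = 0.147 by edgeR), and 3.16% of all genes were called in that comparison. With the length trend removed it was 0.37 ± 0.10 and was called (adjusted p = 0.0446), and without LSK CreER knockouts 2 and 3 it was 0.33 (adjusted p = 0.625). With Mx1Cre the controls had 28.1, 30.0, 32.0 and 29.0 CPM and the knockouts 23.4, 36.6, 22.2 and 20.2 CPM, with an estimate of -0.21 ± 0.16 (adjusted p = 0.320). Over both Cre lines the Kat6b estimate was 0.11 ± 0.11, with an interval of 0.918 to 1.28 in fold.

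Kat6a (Entrez 244349, chr8:22859442-22943259), the paralog of Kat6b, followed the pattern of Ep300. In the LSK Mx1Cre knockouts it stood at 90.6, 165, 94.5 and 74.5 CPM and in their controls at 129.7, 143, 149 and 147 CPM. Knockouts 1, 3 and 4 were again below the controls and knockout 2 above them. The estimate was -0.42 ± 0.19 (adjusted p = 0.102), and with the length trend removed it was -0.14. With CreER Kat6a was 178, 147, 97.6 and 142 CPM in controls and 170.0, 155, 191 and 154 CPM in knockouts, and the estimate of 0.25 ± 0.19 did not pass. Kat6a made up 76.5% to 86.2% of the pair's summed level per kilobase over the 8 groups.

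Kat5 (Entrez 81601, chr19:5603014-5611556), the catalytic subunit of the TIP60 complex, and Kat8 (Entrez 67773, chr7:127912517-127925838), that of the MSL and NSL complexes, varied little. Over the 32 libraries Kat5 ranged from 47.5 to 70.4 CPM (median 53.8) and Kat8 from 21.3 to 37.1 CPM (median 28.7). Over both Cre lines the LSK estimates were 0.09 ± 0.07 for Kat5 and 0.03 ± 0.09 for Kat8, with intervals of 0.953 to 1.18 and 0.889 to 1.17 in fold. Kat8 overlaps Prss8 in the annotation, and Prss8 held 254 counts over all libraries against 11143 for Kat8.

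Summed per kilobase, the 4 other MYST genes stood at 59.4 ± 5.74 in LSK CreER controls and 61.9 ± 3.73 in knockouts (CPM per kilobase, SD, n = 4). With Mx1Cre the same LSK sums were 56.9 ± 1.58 and 57.1 ± 3.63. In progenitors they were 60.3 ± 2.63 and 64.4 ± 1.45 with CreER, and 54.2 ± 5.25 and 57.7 ± 4.28 with Mx1Cre. Kat7 made up 15.8% to 17.3% of the summed level of the 5 MYST genes in the controls and 0.118% to 0.422% in the knockouts, as group means. By the sample titles these controls had lost 1 allele of Hbo1, so their Kat7 level may not be that of cells with both alleles. In each of the 4 pairs of groups the knockout mean of the relatives was the higher one, by less than the 10.3 to 12 CPM per kilobase at which Kat7 stood in the controls. Summed over all 9 genes, the LSK levels were 256 ± 8.59 in controls and 274 ± 5.94 in knockouts with CreER, and 219 ± 9.20 and 252 ± 5.05 with Mx1Cre. In progenitors these sums were 270.0 ± 8.20 and 285 ± 4.42 with CreER, and 239 ± 14 and 251 ± 7.66 with Mx1Cre. Hat1 is the largest part of that sum. No test was run on the sums.

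**Figure D3:**
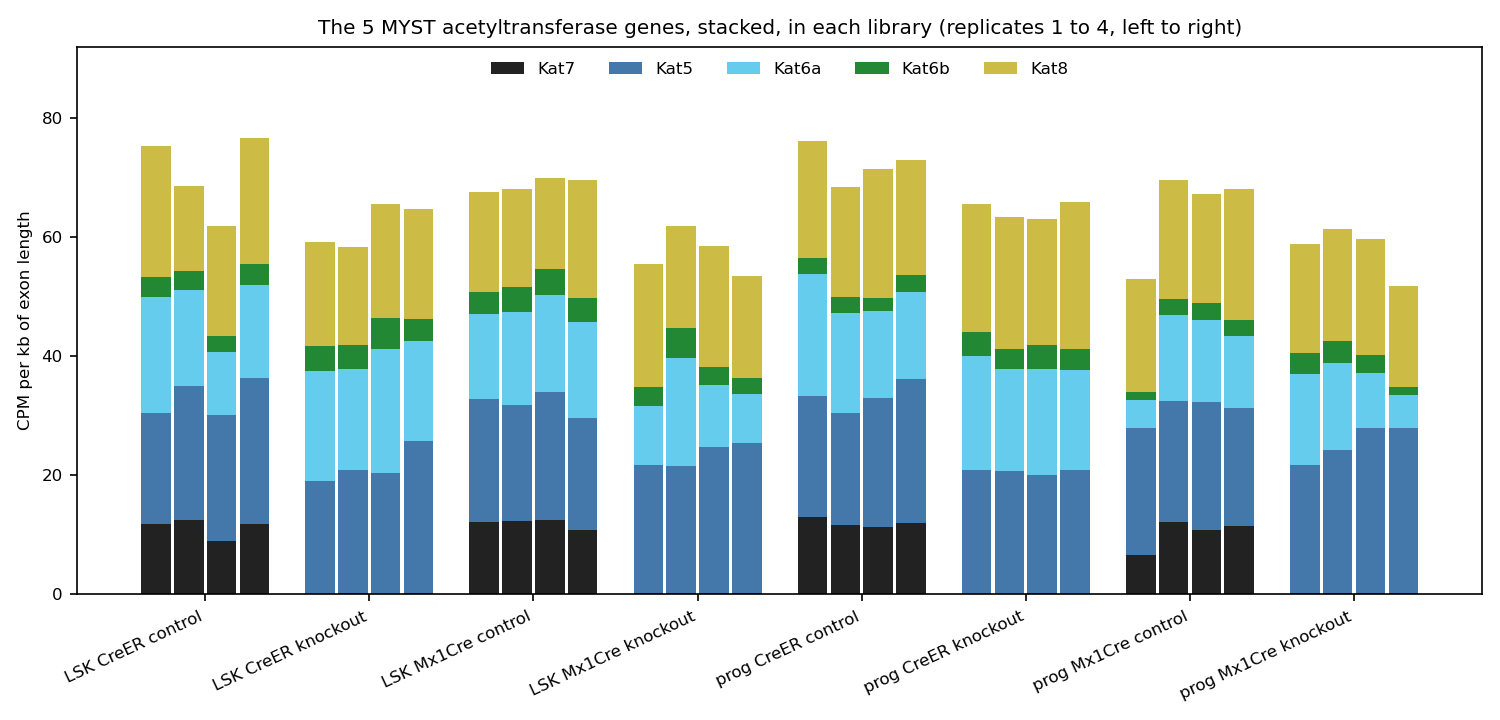
Levels of the 5 MYST genes in CPM per kilobase of exon (vertical axis), stacked in 1 bar for each of the 32 libraries, by group (horizontal axis). The black Kat7 segment averages 10.3 to 12 in the control groups and cannot be seen in the knockouts, while the group means of the other 4 genes together lie between 54.2 and 64.4.

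The GNAT pair Kat2a (Entrez 14534, chr11:100704746-100712485) and Kat2b (Entrez 18519, chr17:53566774-53672721), which are alternative catalytic subunits of the SAGA and ATAC complexes, were not called in either LSK knockout comparison. Kat2a stood at 198, 214, 183 and 236 CPM in the LSK CreER controls and 169, 201, 202 and 224 CPM in the knockouts, and at 157, 165, 179.7 and 175 CPM and 169, 189.8, 186 and 164 CPM with Mx1Cre. Its interval over both lines, 0.909 to 1.10 in fold, held 1 near its middle. Kat2b ranged from 29.9 to 53.8 CPM over the 32 libraries, and its LSK estimate over both lines was -0.04 ± 0.07. Kat2a made up 83.5% to 88.9% of the pair's summed level per kilobase over the 8 groups.

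The knockout effect of several members pointed in different directions with CreER and with Mx1Cre in LSK cells. By the test of that difference none of the 9 passed by edgeR or voom and 1 (Crebbp) by DESeq2, against 4.37% of all genes by edgeR at adjusted p below 0.05. At an unadjusted p below 0.05 there were 6 of the 9. The share of all genes at that unadjusted threshold is not given here, so the 6 cannot be set against a background. The differences, Mx1Cre minus CreER, were -0.96 ± 0.31 for Crebbp (adjusted p = 0.0850 by edgeR), -0.82 ± 0.28 for Ep300 (0.102), -0.67 ± 0.27 for Kat6a (0.147) and -0.66 ± 0.23 for Kat6b (0.0998). Kat2b differed by -0.28 ± 0.13 (0.196). These 5 genes lay on the lower side with Mx1Cre and Hat1 on the higher side. Without LSK Mx1Cre knockout 2, the library of that group with no negative length slope, 5 of the 9 were called: Crebbp (-1.25), Ep300 (-1.06), Kat6a (-0.95), Kat6b (-0.87) and Hat1 (0.54). Without the same library Crebbp, Kat6a and Kat6b also passed in the Mx1Cre comparison itself, at -0.80, -0.71 and -0.44. The calls over all genes moved too. With 1 library left out at a time, 319 to 2556 genes were called for the Cre line difference, against 616 in the full fit. For LSK Mx1Cre they were 3157 to 5674, against 4378. The counts of all genes without knockout 2 alone are not given here, so these member calls have no background of their own. Without LSK CreER knockout 1 the Cre line difference of Hat1 was called, at 0.58 (adjusted p = 0.0377).

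In LSK cells the estimates of the longer genes ran in opposite directions with CreER and with Mx1Cre. With Mx1Cre the 4 genes with the shortest transcripts, Kat8, Hat1, Kat5 and Kat2a, had estimates above 0, and the 5 longer genes had estimates below 0. With CreER the 5 longer genes had estimates above 0, as did Hat1 (0.18). Kat8 (-0.08), Kat5 (-0.02) and Kat2a (-0.06) were just below 0. With the length trend of each library removed, the Mx1Cre estimate was 0.01 for Kat6b, -0.14 for Kat6a, -0.28 for Crebbp and -0.32 for Ep300, and none of the 9 passed the test of the Cre line difference (lowest adjusted p = 0.093 by edgeR, Crebbp at -0.66).

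**Figure D4:**
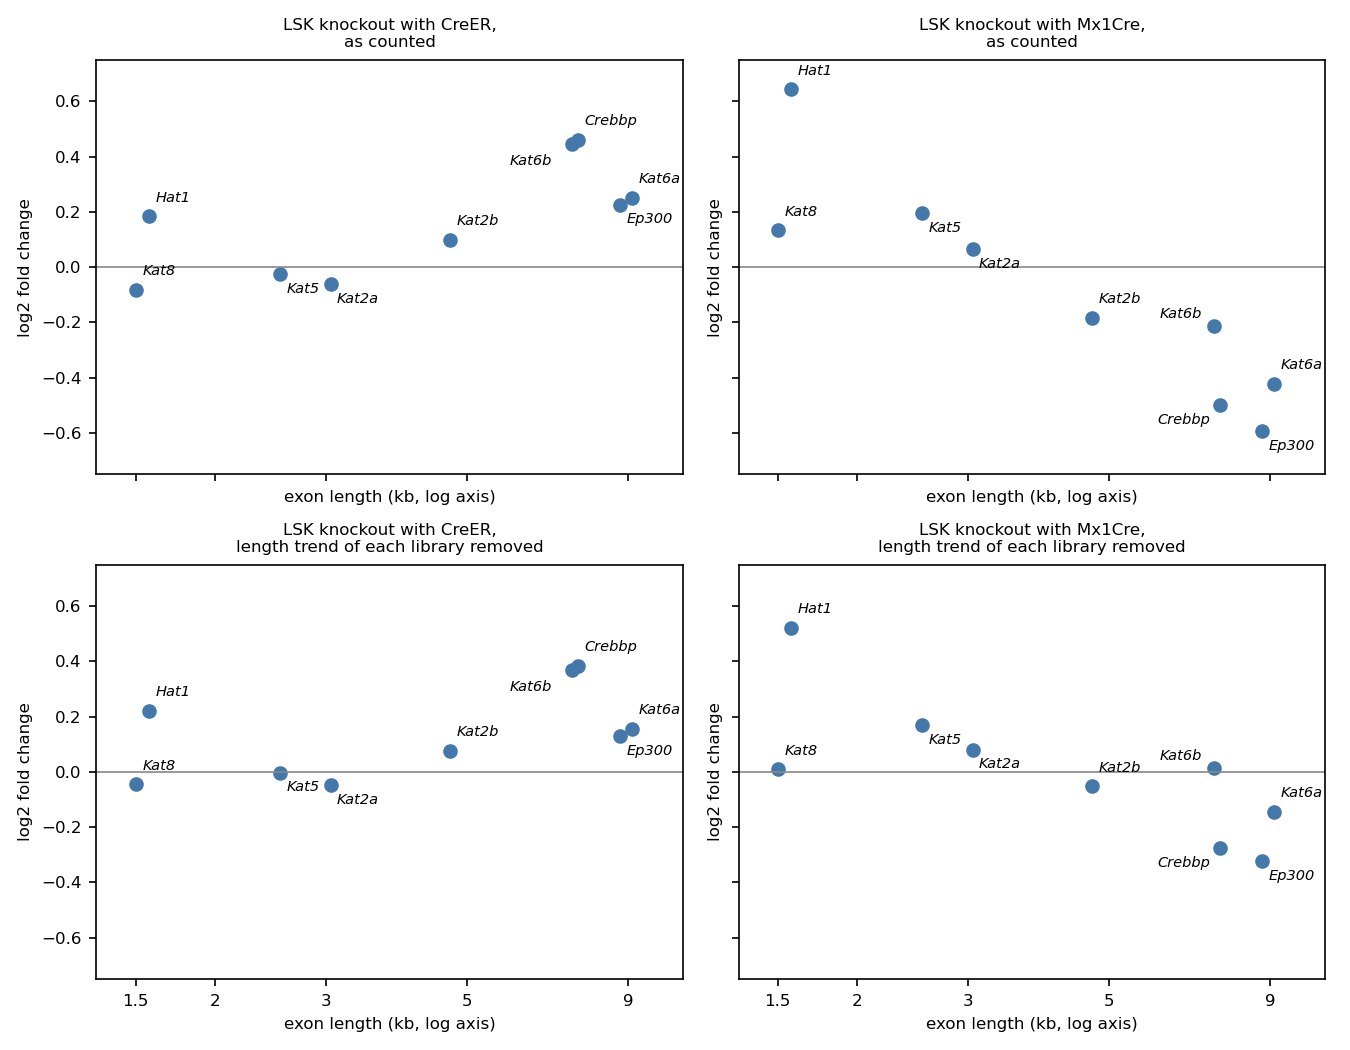
Log2 knockout against control difference in LSK cells (vertical axes) against exon length in kilobases (horizontal axes, log scale) for the 9 genes, with CreER on the left and Mx1Cre on the right. The upper panels use the counts as they are and the lower panels the fit with each library's length trend removed, where Hat1 with Mx1Cre stands at 0.52 and Ep300 at -0.32.

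The controls of the Cre lines also differed from each other. In LSK cells 2 of the 9 passed this test, against 21.7% of all genes, and both were lower with Mx1Cre. These were Hat1, given above, and Kat2a, which was lower by 0.28 ± 0.09 on the log2 scale (adjusted p = 0.0407). The ranges of Kat2a, Kat6b, Crebbp and Hat1 did not overlap between these controls, against 28.8% of all genes. Crebbp and Kat6b were the higher in Mx1Cre controls in these samples, by 0.58 ± 0.22 and 0.39 ± 0.16, and did not pass (adjusted p = 0.0718 and 0.0965 by edgeR). The Kat2a call was lost without LSK CreER knockouts 2 and 3 (adjusted p = 0.0615) and with the length trend removed (0.0578), and without any one of 8 of the 16 LSK libraries, 7 of them controls (CreER 1, 2 and 4, all Mx1Cre) and 1 CreER knockout 2 (0.0534 to 0.154). Without LSK Mx1Cre knockout 2 Kat6b (0.37, adjusted p = 0.0343) and Crebbp (0.56, 0.0284) were called in this comparison. With the length trend removed Crebbp (0.0221), Kat6b (0.0378) and Ep300 (0.0337) were called, with only the 8 control libraries in the fit the same 3 genes (0.0238, 0.0256 and 0.0383), and by DESeq2 Crebbp (0.0472). These comparisons share control libraries with the knockout comparisons above.

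In progenitors none of the 9 passed the knockout test over both Cre lines, where 7.79% of all genes were called (2.28% higher and 5.51% lower), and DESeq2 and voom called none either. One gene, Kat6b, had an unadjusted p below 0.05. In the progenitor CreER controls Kat6b stood at 20.2, 19.8, 16.1 and 21 CPM and in the knockouts at 29.7, 23.7, 29.3 and 25.3 CPM. All 4 knockouts lay above all 4 controls, as they did for 9.58% of genes in one direction or the other. With Mx1Cre the controls had 9.69, 19.7, 21 and 19.7 CPM and the knockouts 26.9, 27.2, 22.5 and 10.6 CPM. There control 1 and knockout 4, the libraries with the steepest length slopes, were the lowest of their groups. The estimate over both lines was 0.40 ± 0.18 (interval 0.01 to 0.79, adjusted p = 0.232 by edgeR). With the length trend removed it was 0.37 ± 0.10 (adjusted p = 0.0238), and without those 2 libraries, a setting chosen after seeing the data, 0.41 (0.0067). Without knockout 4 alone it was 0.52 (0.0379). Markers of other cells differed between the same progenitor groups. With Mx1Cre, committed progenitor markers summed to 35211 to 38373 CPM in controls and 24254 to 27807 CPM in knockouts (all 9 detected), B cell markers to 28.6 to 48.4 and 7.89 to 12.7 CPM (5 of 6 in controls, where Ms4a1 was at 0, and all 6 in knockouts), and mast and basophil markers to 88.6 to 122 and 39.4 to 53.0 CPM (all 5). Neutrophil markers, at 561 to 7573 and 988 to 12249 CPM, overlapped (all 7). With CreER, B cell markers summed to 16.4 to 28.3 CPM in controls and at most 13.7 CPM in knockouts (all 6). The part of these markers in the progenitor values was not tested.

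Hat1 did not pass in progenitors. Its level was 152, 172, 188 and 179 CPM in the CreER controls and 186, 199, 187 and 187 CPM in the knockouts. With Mx1Cre it was 261, 137, 137 and 139.7 CPM in controls and 159, 175, 182 and 224 CPM in knockouts. Mx1Cre control 1 was the highest of all 32 libraries, while the other 3 controls were below all 4 knockouts. The estimate over both lines was 0.12 ± 0.13 (adjusted p = 0.696). Without progenitor Mx1Cre control 1 Hat1 was called over both lines at 0.28 (adjusted p = 0.0195 by edgeR) and with Mx1Cre at 0.44 (0.0182). In the same fit Hat1 was also lower in Mx1Cre controls than in CreER controls (-0.33, adjusted p = 0.0358 by edgeR). Over both lines Hat1 was called in 2 of 25 alternative fits, both of them without control 1, and not with the length trend removed.

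Kat5 was the progenitor gene whose Mx1Cre groups were apart, as were those of 9.45% of genes. Its controls had 53.9, 51.6, 54.5 and 50.2 CPM and its knockouts 54.8, 61.0, 70.2 and 70.4 CPM. The estimate was 0.28 ± 0.11 (adjusted p = 0.161 by edgeR), and 6.08% of all genes were called in that comparison. With CreER Kat5 stood at 51.3, 47.8, 55.2 and 61.4 CPM and 52.8, 52.6, 50.3 and 52.9 CPM, with overlap. None of the 9 passed in the progenitor CreER comparison, where 0.168% of all genes were called, or in the test of the Cre line difference (0.299%), by edgeR, DESeq2 or voom. At an unadjusted p below 0.05 there were 0 and 1 of the 9, the latter being Kat5. For the remaining genes the progenitor estimates over both lines were -0.14 ± 0.20 for Ep300, -0.02 ± 0.30 for Crebbp, 0.03 ± 0.22 for Kat6a, 0.01 ± 0.12 for Kat2a, -0.04 ± 0.10 for Kat2b and 0.03 ± 0.08 for Kat8. The upper ends of the 9 intervals ran from 1.13 to 1.73 in fold. In progenitor Mx1Cre control 1 Crebbp stood at 5.93 CPM and Ep300 at 59.6 CPM, against 36.6 to 49.3 CPM and 158 to 173 CPM in the other 3 controls.

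Among progenitor controls, 25.3% of all genes differed between the Cre lines, and of the 9 genes 1 did. Kat2a stood at 212, 198, 209 and 223 CPM with CreER and 95.2, 142, 185 and 165 CPM with Mx1Cre, with no overlap, and was lower with Mx1Cre by 0.51 ± 0.16 (adjusted p = 0.0301 by edgeR). It was no longer called without any one of CreER controls 1, 3 and 4 or Mx1Cre control 2 (adjusted p 0.0558 to 0.0713), or with only the 8 control libraries in the fit (0.0756). Between these control groups committed progenitor markers summed to 14144 to 25676 CPM with CreER and 35211 to 38373 CPM with Mx1Cre (all 9 detected), neutrophil markers to 122 to 352 and 561 to 7573 CPM (all 7), T and NK cell markers to 158 to 245 and 273 to 454 CPM (all 7), and B cell markers to 16.4 to 28.3 and 28.6 to 48.4 CPM (Ms4a1 at 0 with Mx1Cre). Their part in the Kat2a difference was not tested. Kat6a was also apart between these controls (-0.56 ± 0.31, adjusted p = 0.196), as 26.3% of genes were.

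Between the populations, 2 of the 9 genes differed in the controls, against 34.6% of all genes. Kat6b was higher in LSK cells than in progenitors, 1.43-fold (0.52 ± 0.16 on the log2 scale, adjusted p = 0.0127 by edgeR). Hat1 was lower in LSK cells, at 0.777 of its progenitor level (-0.36 ± 0.11, adjusted p = 0.0111). With the mouse as a block, since each mouse gave both populations, the values were 0.54 (adjusted p = 0.00154) and -0.34 (0.00563). The knockout effect itself differed between populations for none of the 9, against 2.52% of all genes, with 0 at an unadjusted p below 0.05 by edgeR and 0 called by DESeq2 or voom. For Hat1 that difference, LSK minus progenitors, was 0.28 ± 0.16 (adjusted p = 0.407), so the call in LSK cells and its absence in progenitors do not show that the effect was unequal.

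Some subunits that work with these enzymes, and some deacetylases that remove the mark, also differed in the knockouts. These genes were named for their low adjusted p in the same comparisons, so their changes are not set against those of the enzymes. Ranges that did not overlap are given for some of them below, and that choice favours such ranges. Among all genes tested, the LSK ranges did not overlap for 9.54% with CreER and 29.5% with Mx1Cre. Of 9 MYST scaffold genes 1 rose in LSK cells over both lines, where 13.5% of all genes rose and 14.3% fell. This was Jade2, a scaffold that directs Kat7 to histone H4. Its LSK level was 66.4, 68.4, 53.4 and 65.6 CPM in CreER controls and 90.9, 73.5, 74.9 and 74.2 CPM in knockouts. With Mx1Cre it was 43.6, 48.6, 43.1 and 51.8 CPM and 63.8, 73.5, 59.6 and 60.4 CPM. Every knockout lay above every control of its Cre line. Jade2 rose by 0.38 ± 0.07 in LSK cells (adjusted p = 0.000892 by edgeR) and by 0.52 ± 0.14 in progenitors (adjusted p = 0.0318), where it was the called gene among the 9 scaffolds. The progenitor call was lost without any one of 8 of the 16 progenitor libraries (adjusted p 0.0536 to 0.0754) and with the replicate number as a block (0.52, adjusted p = 0.0533). The median of that list was 0.04 in LSK cells and 0.12 in progenitors, against 0.01 and -0.01 over all genes.

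In the next 3 lists the called counts were near or below the shares of all genes that rose (13.5%) or fell (14.3%). Of 16 TIP60 complex genes 1 rose in LSK cells, Ruvbl2, an ATPase of the complex (0.24 ± 0.08, adjusted p = 0.0281 by edgeR). Of 11 MSL and NSL genes 2 fell, Phf20 by 0.23 ± 0.07 and Ogt by 0.42 ± 0.15 (adjusted p = 0.0195 and 0.0439), and the Phf20 call was lost with the length trend removed (-0.15, adjusted p = 0.121 by edgeR). Of 15 SAGA and ATAC genes 2 rose, Supt3 (0.29 ± 0.10, adjusted p = 0.0415) and Kat14. Kat14, the second acetyltransferase of ATAC, had 81.2, 80.2, 88.8 and 77.6 CPM in the LSK CreER controls and 97.9, 99.5, 91.4 and 97.9 CPM in the knockouts. With Mx1Cre it had 83.8, 82.5, 83.5 and 84.9 CPM and 110.4, 100.5, 112 and 102 CPM, so knockouts and controls were apart in both lines. Kat14 rose by 0.29 ± 0.05 (adjusted p = 0.000402). The Ruvbl2, Ogt and Supt3 calls were near the threshold and were lost without any one of 8, 13 and 12 of the 16 LSK libraries (adjusted p up to 0.0718, 0.0944 and 0.102). None of these 3 lists had a called gene in progenitors by edgeR, DESeq2 or voom, with 1 gene of each at an unadjusted p below 0.05, and their medians were within 0.06 of 0 in both populations.

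Of 13 genes that work with Hat1 or with p300 and CBP, 4 rose and 2 fell in LSK cells, where 13.5% of all genes rose and 14.3% fell. The histone chaperones Asf1a and Asf1b, which receive new histones after Hat1 has acted on them, rose by 0.28 ± 0.08 and 0.25 ± 0.06 (adjusted p = 0.0207 and 0.00626 by edgeR). Without LSK Mx1Cre control 2 Asf1a was at 0.25 (adjusted p = 0.0504). Cited2, a protein that binds p300 and CBP, rose by 0.44 ± 0.07 (adjusted p = 0.000140). Its LSK level with Mx1Cre was 143, 156, 135 and 145 CPM in controls and 227, 210.0, 190.1 and 206 CPM in knockouts, with no overlap. With CreER it was 144, 114, 108 and 116 CPM and 133, 158, 161 and 162 CPM, with overlap. Ncoa1, a nuclear receptor coactivator, fell by 0.55 ± 0.11 over both lines. It was 34.8, 39.7, 37.1 and 38.3 CPM in Mx1Cre controls and 14.8, 20.1, 16.4 and 12.4 CPM in knockouts, but 36.7, 31.9, 23.5 and 35.4 CPM and 27.9, 38.6, 37.1 and 35.1 CPM with CreER, and the Cre lines differed by -1.36 ± 0.21 (adjusted p = 0.00110). The remaining called genes, Rbbp7 (higher) and Cited4 (lower), were named after their values were seen. Every other partner gene was also picked with its adjusted p known. In progenitors edgeR and voom called none of the 13, DESeq2 called 1, and 1 had an unadjusted p below 0.05. The lowest adjusted p was that of Cited2 (0.39 ± 0.12, adjusted p = 0.0523 by edgeR), which was called without any one of progenitor Mx1Cre control 1 (0.33), Mx1Cre control 4 (0.44), CreER knockout 1 (0.44) or Mx1Cre knockout 4 (0.43).

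Of 18 histone deacetylase genes 3 fell in LSK cells, near the 14.3% of all genes that fell. Hdac11, the class IV deacetylase, had 9.63, 8.13, 6.77 and 9.09 CPM in the LSK CreER controls and 4.96, 2.77, 4.33 and 3.57 CPM in the knockouts, and 8.17, 8.71, 7.15 and 8.05 CPM and 0.853, 1.88, 1.02 and 1.41 CPM with Mx1Cre. Every knockout lay below every control. Hdac11 fell by 1.85 ± 0.17 on the log2 scale (adjusted p = 4.12e-07 by edgeR). Hdac7, a class IIa enzyme, fell by 0.53 ± 0.08 (adjusted p = 6.48e-05), from 168 to 225 CPM to 129 to 167 CPM with CreER and from 135 to 173 CPM to 89.5 to 106 CPM with Mx1Cre. Hdac9 fell by 0.60 ± 0.17 in LSK cells (adjusted p = 0.0143) and by 1.14 ± 0.30 in progenitors (0.0266), where it was the called deacetylase. That progenitor call was lost without CreER control 2 (-1.07, 0.0556) or CreER control 3 (-1.13, 0.0532). The knockout effect on Hdac11 and on Hdac7 differed between the populations, by -1.15 ± 0.31 and -0.67 ± 0.18 (LSK minus progenitors, adjusted p = 0.0396 and 0.0432 by edgeR), and these calls were lost without any one of 20 and 21 of the 32 libraries (adjusted p up to 0.0768 and 0.0939).

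**Figure D5:**
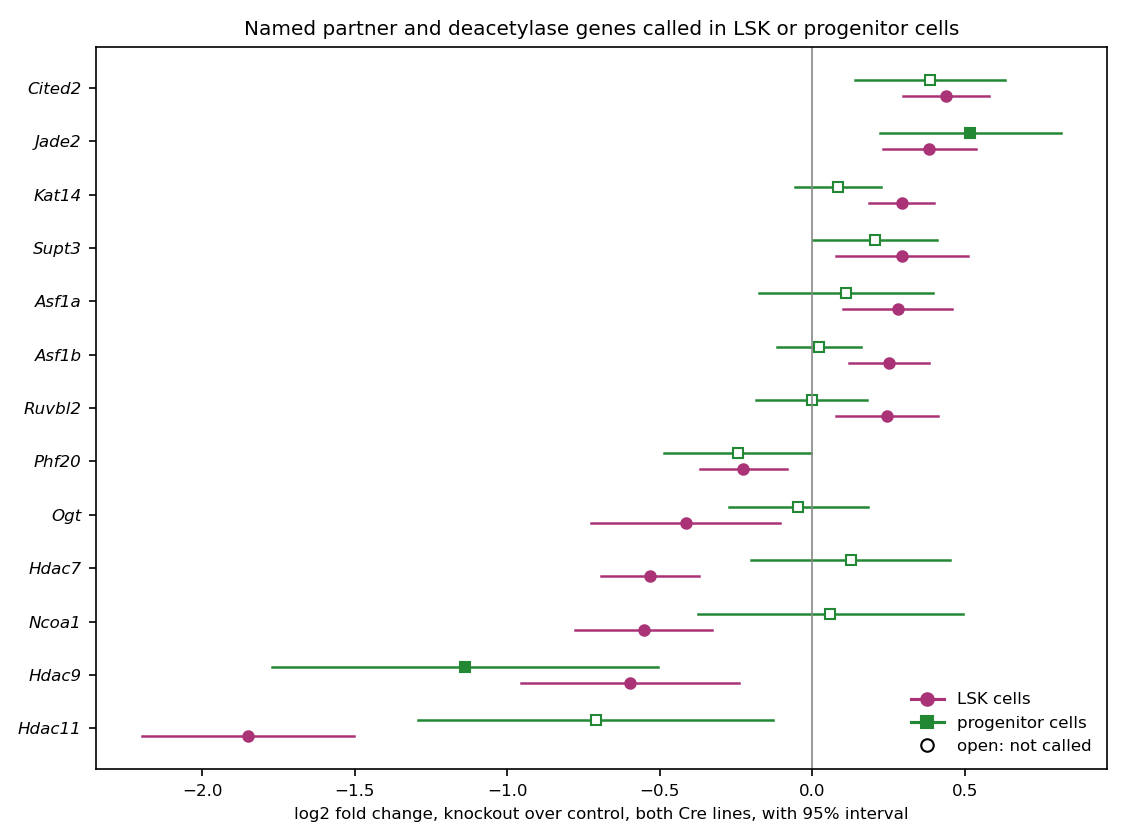
Log2 knockout against control difference over both Cre lines (horizontal axis) with 95% intervals for the named partner and deacetylase genes called in LSK cells (circles) or progenitors (squares), open where not called. Hdac11 is the lowest in LSK cells at -1.85, and Jade2 is above 0 in both populations.

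Across the 32 libraries the long members varied together, as a description with no test. Pearson's r of log2 CPM was 0.89 between Crebbp and Kat6a, 0.87 between Ep300 and Crebbp, 0.86 between Ep300 and Kat6a and 0.85 between Crebbp and Kat6b. It was 0.78 between Kat6a and Kat6b and 0.68 between Ep300 and Kat6b. Kat2a, with 3048 bases of exon, had r of 0.78 with Kat6a, 0.73 with Crebbp, 0.57 with Ep300 and 0.56 with Kat6b. Many other genes were closer: by r with Kat6a, Crebbp ranked 216 and Ep300 400 among all genes. Hat1 ran against Kat2b (-0.69), Ep300 and Crebbp (both -0.66), Kat7 (-0.51) and Kat6b (-0.50). The genes most like Ep300 were Kmt2e (0.980), Ubr2 and Foxk1, and those most like Hat1 were Cct8 (0.943), Psmd6 and Etfa. For Kat6a they were Ankrd17 (0.971), Trim56 and Bptf, for Crebbp Kdm3b (0.966), Ankrd11 and Pkd1, and for Kat6b Pkd1 (0.903), Aff4 and Sesn3. Kat2a was most like Tcof1 (0.955), Smarca4 and Dhx37, and Kat2b like Arid4a (0.859), Crebrf and Med13l. Kat5 (Stk11, 0.778) and Kat8 (Pold2, 0.632) had the loosest nearest genes. All these libraries share the differences in length slope described above.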

How the data were processed

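Bulk RNA-seq was done on 32 libraries (50 ng RNA, TruSeq, paired-end 80 bp reads, per the labels' protocols). The deposited whole-number counts per gene were made by the authors with featureCounts on mm10, per the submitters' processing notes; aligner, gene annotation and strandedness: not given in the sources used here. Exon lengths are those deposited with the counts and were used only for levels per kilobase and the length trend. Genes without a symbol held 3.92% of counts and were treated like all other genes in library sizes and tests.

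Tests used edgeR 4.0.16 (TMM scaling, filterByExpr with minimum count 10 and total 15, quasi-likelihood test, Benjamini-Hochberg adjustment over all tested genes, threshold 0.05) in R 4.3.3. Models within a population used its 16 libraries and models across populations all 32, which gave 12 comparisons. SE is the log2 change divided by the root of the test statistic. CPM was TMM-scaled over the 32 libraries. Intervals are at 95%. The length trend was a lowess curve (span 0.5). The tests were checked on simulated data.

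Levels were described for the 9 named genes and Kat7. Partner genes named were up to 4 per list with the lowest adjusted p in either knockout comparison over both Cre lines, and for each member the 3 genes with the highest Pearson r. The members and lists were chosen with earlier results of these data known. Replicates were separate mice. The same mouse gave an LSK and a progenitor library by its number in the labels, and in 14 of 16 mice these deviated together (r above 0.1), so a mouse block was tried between populations. The 2 exceptions were the mice of CreER knockouts 2 (r = -0.0939) and 3 (-0.0634), whose LSK libraries go against the labelled sex, so the mouse labels of these libraries are in doubt; among the 8 control mice r was 0.178 to 0.427. Replicate numbers join knockout and control libraries of different mice, which deviated together in all 4 LSK Mx1Cre pairs (r 0.147 to 0.258) but not in every pair of any other arm. Alternatives were DESeq2 1.42.0, limma 3.58.1 (voom), DESeq2 size factors, no filter and a filter at 1 CPM in 4 libraries, the length trend removed, sex in the model, each library left out, replicate blocks, LSK CreER knockouts 2 and 3 left out, and only the 8 libraries compared. One further setting, without progenitor Mx1Cre control 1 and knockout 4, was chosen after seeing the data. Promoters came from RefSeq (GRCm38.p6). Intervals and tests rest on 4 mice a group. Counts at an unadjusted p below 0.05 are given without the share of all genes at that threshold, and the shares of genes called are at the adjusted threshold.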

Additional observations from a re-analysis of the deposited data

Results flagged for a closer look

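Of 72 groups of 4 libraries of the 9 genes, 6 held a library far from the other 3, meaning that its gap to the nearest, divided by the range of the group, exceeded Dixon's critical value for 4 values. Chance gives about 1 in 20 groups. In progenitor Mx1Cre control 1 Kat6b was lowest, at 9.69 CPM (gap share 0.879, the others at 19.7 to 21 CPM), Ep300 was lowest at 59.6 CPM (0.872, the others at 158 to 173 CPM) and Hat1 was highest at 261 CPM (0.977, the others at 137 to 139.7 CPM). In progenitor Mx1Cre knockout 4 Kat2b was lowest, at 29.9 CPM (0.877, the others at 44.4 to 46.5 CPM). Both libraries have the steep length slopes given above, and the part of that slope in these values was not tested. In the progenitor CreER knockouts Kat5 was lowest in library 3, at 50.3 CPM (0.877, the others at 52.6 to 52.9 CPM), and Hat1 was highest in library 2, at 199 CPM (0.876, the others at 186 to 187 CPM). Kat7, outside the 72, was lowest in LSK Mx1Cre control 4, at 64.4 CPM (0.838, the others at 72.8 to 74.4 CPM).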

How the results depend on the processing

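Over the 9 genes 3060 values were recomputed, of which 3008 kept their side of the threshold, 22 lost a call and 30 gained one. No call reversed, but some estimates that were not called changed sign. With the length trend removed Kat6b with Mx1Cre in LSK cells went from -0.21 to 0.01, and Crebbp in LSK cells over both lines from -0.02 to 0.06. Of 144 recomputed group means 1 moved by more than 1 SD (Kat5 in progenitor Mx1Cre controls, 48.8 CPM without TMM scaling). For each change of call the cause was not tested. The number of the 9 called was 1 for LSK CreER with the length trend removed. For the LSK Cre line difference it was 1 by DESeq2. For LSK controls, 2 in the chosen fit, it was 3 by DESeq2, 1 with no filter, 4 with the length trend removed, 5 with only the 8 libraries compared and 1 without LSK CreER knockouts 2 and 3. For the progenitor knockout it was 1 with the length trend removed and 2 without progenitor Mx1Cre control 1 and knockout 4. That last setting gave 1 for progenitor Mx1Cre and 2 for progenitor controls, where the chosen fit gave 1, the length trend removed gave 2 and only the 8 libraries gave 0. Leaving out 1 library at a time gave 1 to 5 members for LSK Mx1Cre, 0 to 5 for the LSK Cre line difference, 1 to 4 for LSK controls, 0 to 1 for progenitors over both lines and for progenitor Mx1Cre, and 0 to 2 for progenitor controls. For LSK controls the chosen fit called 3054 of all genes. The counts of all genes in the other settings named above for LSK controls are not given here, so those member counts have no background beside them. The same holds for any setting that the next paragraph does not list.

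Counts of all genes called moved more. LSK CreER (445) gave 889 by DESeq2, 679 with the length trend removed, 231 with only the 8 libraries, 33 without LSK CreER knockouts 2 and 3, and 159 to 714 leaving out 1 library. The LSK Cre line difference (616) gave 1229 by DESeq2, 310 without those knockouts and 319 to 2556 leaving out 1. Progenitors over both lines (1067) gave 2013 without Mx1Cre control 1 and knockout 4 and 775 to 1794 leaving out 1. Progenitor CreER (23) gave 183 by DESeq2, 36 by voom, 77 with the length trend removed, 158 with only the 8 libraries, 150 without those 2 libraries and 7 to 78 leaving out 1. Progenitor Mx1Cre (833) gave 1264, 344 and 1384 by DESeq2, with only the 8 libraries and without those 2, and 553 to 1541 leaving out 1. The progenitor Cre line difference (41) gave 120 by DESeq2, 19 by voom, 66 with the length trend removed and 25 to 60 leaving out 1. Progenitor controls (3458) gave 2297 with only the 8 libraries and 2316 to 3753 leaving out 1. The population difference (364) gave 611 by DESeq2, 603 with the length trend removed, 769 with the mouse as replicate block (2 of whose mice are those of CreER knockouts 2 and 3), 148 without LSK CreER knockouts 2 and 3, 768 without the 2 progenitor libraries and 186 to 640 leaving out 1. Leaving out 1 library also gave 3113 to 4897 for LSK over both lines, 3157 to 5674 for LSK Mx1Cre, 2107 to 3554 for LSK controls and 4443 to 5309 between populations.

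With the replicate number as a block, LSK over both lines gave 3783 genes, LSK Mx1Cre 4221 and progenitors over both lines 933, and the number of the 9 called was the same in each comparison within a population, with Hat1 (0.65, adjusted p = 0.00110 by edgeR) and Ep300 (-0.62, 0.0394) still called for LSK Mx1Cre. Control and knockout libraries of 1 number deviated together (r above 0.1) in all 4 LSK Mx1Cre pairs (0.147 to 0.258), 1 of 4 LSK CreER pairs and 3 of 8 progenitor pairs, and come from different mice. Counts of Kat6b (71 to 681 a library), Crebbp (79 to 1107) and Kat8 (170 to 480) were the lowest of the 9, and the part of depth in the width of their intervals was not tested.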
